A study of Drosophila melanogaster with 3 samples.

Results

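The genes for the proteins of the large cytoplasmic ribosomal subunit were examined in a map of chromatin bound by the GFP-tagged product of CG3838, the Drosophila melanogaster gene now named brickwall (brwl). The members are the protein-coding genes of the Ensembl BDGP6 annotation whose symbol begins with RpL, which takes in RpLP0, RpLP1 and RpLP2 and leaves out the mitochondrial mRpL genes. There are 54 of them among 13968 protein-coding genes. For each gene the strongest summit within 500 bp of any of its annotated transcription start sites (TSSs) was taken from each peak list. The gene symbol and not the binding data defined the members.

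The study is a chromatin immunoprecipitation with sequencing (ChIP-seq) of whole embryos 0 to 24 h old, both sexes mixed, from 1 stable transgenic line in which GFP is fused to the C-terminal end of CG3838. An antibody against GFP was used for the precipitation, and the antibody field of the labels names CG3838. Chromatin was sonicated to between 200 and 800 bp. The 3 biological replicates form a single group, and all were set against 1 control alignment per genome build. A line without the tag was not analysed here, and accessibility of the chromatin was not assayed, so binding of the tagged protein cannot be told apart from signal of open chromatin or of the antibody. Whole embryos mix all cell types, and a region bound weakly in many cells cannot be told apart from one bound strongly in few.

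Ribosomal proteins are needed in near equal amounts by every growing cell, and their genes are among the most highly transcribed by RNA polymerase II. In flies the start sites of these genes lie in a pyrimidine-rich initiator, the TCT element, in place of the usual initiator, and are served by the TBP-related factor Trf2. The DNA replication-related element factor Dref and the Motif 1 binding protein M1BP are known to bind promoters of this class. Loss of 1 copy of many of these genes gives the Minute phenotype of slow growth and short bristles.

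Of the 54 RpL genes, 31 had a summit within 500 bp of a TSS in the list of peaks that passed the authors' filter on agreement between replicates (57.4%, exact Clopper-Pearson interval 43.2% to 70.8%). The same held for 11.6% of all protein-coding genes. The strongest were RpL7, RpL19 and RpL34b. A further 12 RpL genes had a weaker summit, found only in the list called on the 3 replicates pooled, 7 had one only in 1 or more of the replicate lists, and 4 had none in any of the 5 dm6 lists. The start sites of 8 genes with a peak that hold the word CTTT near the TSS are printed as examples of it. They were chosen for that word and do not stand for all RpL genes. Each line runs 5′ to 3′ on the strand of the gene, from 15 bases before the TSS, on build dm6. The capitals mark the word CTTT, the core of the TCT initiator, with its C within 10 bp of the TSS. Whether the marked word is the initiator in use was not tested. Where a line holds more than 1 such word, only the first is marked.
RpL34b (chr3R:9401212-9401241, minus strand): gcgcgaacagggttgccacCTTTctttcta
RpL13A (chr3R:5624459-5624488, plus strand): gtcaacgcaacttccgccttCTTTccgtgc
RpL14 (chr3L:8600991-8601020, plus strand): ctgtcaaaaaagttCTTTccttctctttct
RpL23A (chr3L:1668640-1668669, minus strand): aactgcccctcagttttcCTTTtcatttct
RpL28 (chr3L:3222946-3222975, minus strand): tatgtcgggctgccatatttCTTTccttct
RpLP0 (chr3L:22076077-22076106, plus strand): tgccgccgccaacttcactCTTTccgttct
RpL4 (chr3R:27922806-27922835, plus strand): agccatttccggcagctctCTTTctttctt
RpL3 (chr3R:11221879-11221908, plus strand): cggaagtcggaatcgtttCTTTtccgtttt

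The second set is longer, from 100 bases before the TSS, and shows promoters that hold a word known to be bound at such genes. The capitals mark the DRE core TATCGATA, to which Dref binds, in RpL28, RpL26, RpL37-1, RpL27 and RpL10Ab. They mark the Motif 1 core GGTCACAC in RpLP1 and RpL6, the E-box CACGTG in RpL24, and the first CTTT where it lies at this TSS. RpL28, RpL26, RpL37-1, RpLP1 and RpL24 had a peak. RpL27, RpL10Ab and RpL6 hold the same words and had none in the list that passed the filter.
RpL28 (chr3L:3222946-3223060, minus strand): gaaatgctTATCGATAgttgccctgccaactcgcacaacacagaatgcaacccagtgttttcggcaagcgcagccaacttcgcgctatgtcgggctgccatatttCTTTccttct
RpL26 (chr3L:18898775-18898889, plus strand): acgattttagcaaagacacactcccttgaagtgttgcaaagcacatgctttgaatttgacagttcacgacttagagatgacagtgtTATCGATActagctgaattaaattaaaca
RpL37-1 (chrX:15139353-15139467, minus strand): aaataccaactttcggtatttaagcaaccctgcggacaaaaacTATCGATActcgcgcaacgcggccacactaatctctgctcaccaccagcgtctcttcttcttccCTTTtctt
RpLP1 (chr2L:419852-419966, plus strand): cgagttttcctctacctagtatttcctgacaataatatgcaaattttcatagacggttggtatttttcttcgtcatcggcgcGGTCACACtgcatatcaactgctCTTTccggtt
RpL24 (chr2L:13395117-13395231, minus strand): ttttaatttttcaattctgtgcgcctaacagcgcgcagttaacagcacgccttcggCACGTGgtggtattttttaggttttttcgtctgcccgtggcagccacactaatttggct
RpL27 (chr3R:25685037-25685151, minus strand): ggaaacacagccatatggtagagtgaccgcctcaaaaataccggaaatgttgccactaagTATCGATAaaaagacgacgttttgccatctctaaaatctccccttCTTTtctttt
RpL10Ab (chr3L:11822751-11822865, plus strand): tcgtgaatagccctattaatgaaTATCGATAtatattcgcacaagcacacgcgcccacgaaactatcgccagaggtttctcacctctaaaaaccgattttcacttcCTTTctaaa
RpL6 (chr3R:31596190-31596304, minus strand): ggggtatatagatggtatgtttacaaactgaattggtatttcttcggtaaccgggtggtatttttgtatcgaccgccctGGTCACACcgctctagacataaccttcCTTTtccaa

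The lists differ in length and stand as follows. The thresholded list, which passed the authors' filter, holds 2239 regions on dm6, the pooled list 15592, and the replicate lists 30000, 30000 and 21147 for replicates 1, 2 and 3. The signal given below is the value of the authors' own caller, whose scale the sources do not explain, and serves only to order regions within 1 list. No list carries read counts, so the depth of the replicates is unknown. Replicate 3 stands apart from the other replicates for the RpL genes, as described further on, and values are given with and without it.

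RpL7 had the strongest promoter summit of the RpL genes. RpL7 is an RNA-binding protein of the large subunit, and its gene (FBgn0005593) lies on the plus strand of 2L from 10201004 to 10202321. The summit at 10201048, 44 bp downstream of the nearest TSS, had a thresholded signal of 371.7 and ranked 148 of 2239. In the lists of replicates 1, 2 and 3 the RpL7 signal was 147.7, 157.7 and 72.8, which ranked 72, 137 and 523. RpL7 was the highest of the RpL genes in replicates 1 and 2, and RpL34b (rank 238) was the highest in replicate 3. No RpL gene was among the strongest 100 regions, against 0.651% of all protein-coding genes. That share is too small for the absence to set the RpL genes apart. The strongest promoter summit over all protein-coding genes had a signal of 1795.9 and was that of brwl, the gene of the tagged protein itself. What part the transgene has in the brwl signal was not tested.

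The proteins that line or surround the exit tunnel for the growing polypeptide came from genes with and without a peak. RpL19 (FBgn0285950, 2R from 24967877 to 24969547), also part of a bridge to the small subunit, had a thresholded signal of 315.4 with its summit 13 bp upstream of the TSS. Its replicate signals were 106.6, 118.0 and 84.7. RpL23A, at the tunnel exit where the signal recognition particle docks, had a thresholded signal of 249.1, and 88.6, 100.4 and 63.0 in the replicates. RpL4, with a loop reaching into the tunnel, had 208.8, and 85.0, 74.3 and 48.4 in the replicates. The 3 genes were thus among the strongest 2239 regions of every replicate, as was RpL17 (168.7), a further tunnel protein. RpL31 (152.8) and RpL26 (140.9), at the tunnel exit, also had peaks. RpL35, of the same site, had a region in replicate 3 only, with a signal of 22.0 at rank 6868. RpL39, a very small tunnel protein, fell just outside the thresholded list with a pooled signal of 102.2.

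The stalk of the subunit, which recruits the elongation factors, was divided. RpLP0 (FBgn0000100, 3L from 22075867 to 22077487), its base, had a thresholded signal of 225.4, with 70.5, 112.9 and 44.2 in the replicates. RpLP1 was just inside the list with 106.6. RpLP2 had a pooled signal of only 74.0, at rank 4089, and RpL12, at the foot of the stalk, one of 51.4. Of RpL5 and RpL11, which carry the 5S ribosomal RNA together, RpL11 had a peak of 107.3 and RpL5 a pooled signal of 57.9. RpL11 had no promoter region in the list of replicate 3, and it was the only 1 of the 31 genes missing from a replicate list.

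The 12 strongest also included RpL34b, RpL13A, RpL41, RpL14, RpL28 and RpL32. RpL34b, 1 of a pair of genes for the same protein, had a thresholded signal of 288.2, and 92.5, 92.1 and 100.4 in the replicates, which ranked 206, 431 and 238. RpL13A had 267.9, and 84.5, 120.6 and 65.9 in the replicates. RpL41, whose product is the smallest of the ribosomal proteins, had 263.4, and 73.0, 112.3 and 72.1 in the replicates. All 3 were in the strongest 2239 of every replicate. RpL14 had 257.9, and 97.1, 109.8 and 71.6 in the replicates. RpL28 had 244.2, and 75, 93.3 and 78.8 in the replicates. RpL32, long used as the reference transcript rp49 in fly work, had 223.8, and 53.3, 91.8 and 76.0 in the replicates. Within each replicate list all 12 ranked between the values 72 and 1571.

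The remaining genes with a peak reached from 188.9 down to 105.8. RpL13 (188.9), RpL30 (172.3), RpL24 (169.3), RpL18 (166.3) and RpLP0-like (159.3) were in the upper part. RpL24 makes a bridge to the small subunit. RpL27A (149.5), RpL36 (148.7) and RpL22 (137.4) followed. RpL3, with a finger next to the catalytic centre of the subunit, had 121.4, near RpL29 (121.7) and RpL37A (116.2). The lowest were RpL37-1 (111.9), RpL35A (108.8), RpL11, RpLP1 and RpL8 (105.8). The edge of the list ran through a run of like values, since RpL8, RpLP1 and RpL11 lay just inside it and RpL39 (102.2), RpL23 (101.2) and RpL34a (100.3) just outside, the list ending at 103.5.

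**Figure D1:**
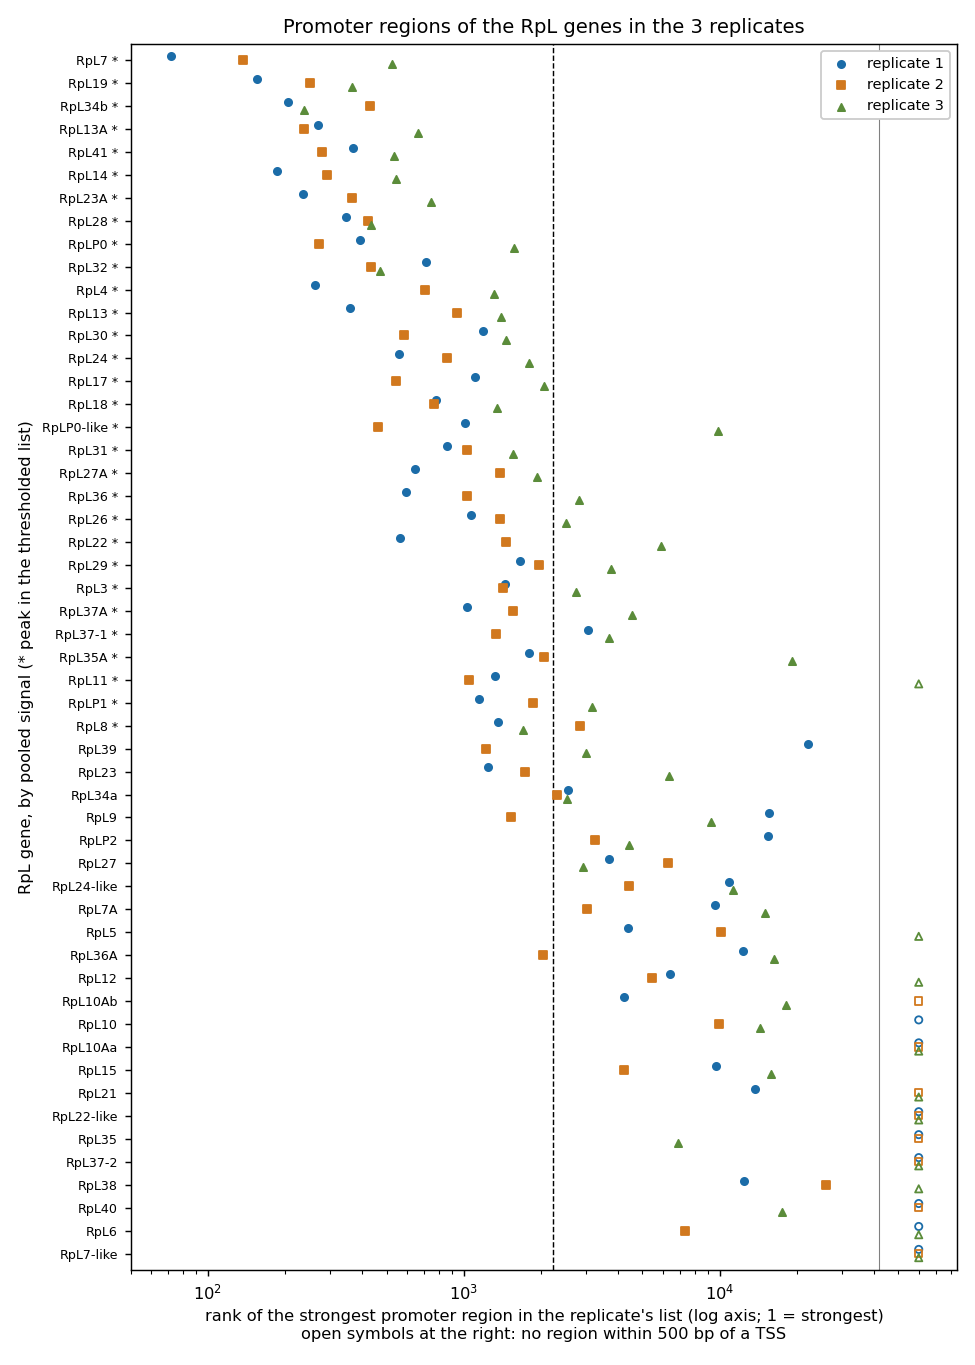
Rank of the strongest promoter region of 53 of the 54 RpL genes in the lists of replicates 1, 2 and 3 (log axis, 1 is the strongest region), the genes running down the page by pooled signal. Filled symbols are ranks, open symbols at the right mark genes with no region within 500 bp of a TSS, the dashed line is rank 2239, and asterisks mark genes with a thresholded peak; most triangles of replicate 3 sit to the right of the other symbols of the same gene.

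Members with a peak were of middle strength. Their median thresholded signal was 168.7, against 156.3 over all 1625 protein-coding genes with a peak. Among the strongest 500 regions were 11 RpL genes (20.4% of the 54, against 3.05% of all protein-coding genes). Among the strongest 1000 were 18 (33.3%, against 5.79%). In the strongest 250 there were only 2, RpL7 and RpL19, which is 3.70% of the RpL genes against 1.60% of all.

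Counting weak regions as well, 43 RpL genes had a summit in the pooled list (79.6%, against 38.3% of all protein-coding genes), and 50 had one in at least 1 dm6 list (92.6%, against 64.0%). The pooled list reaches down to a signal of 40.2. The 4 genes in no list were RpL10Aa, RpL22-like, RpL37-2 and RpL7-like. Of these, 3 carry the symbol of a paralogue. RpL10Aa and RpL22-like are second copies beside RpL10Ab and RpL22, and RpL7-like is related to a yeast ribosome assembly factor. RpL37-2, at 422 bp the shortest RpL gene, is the second copy beside RpL37-1.

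Of the 8 genes whose symbols mark a paralogue 2 had a thresholded peak, against 29 of the 46 others. The 2 were RpL34b and RpLP0-like, a relative of a yeast factor that holds the place of the stalk base during assembly. RpL34a, the partner of RpL34b, had a pooled signal of 100.3, and RpL10Ab had one of 49.8. RpL24-like, a relative of a yeast assembly factor, had a pooled signal of 62.1 with its summit 382 bp downstream of its TSS. How reads were placed between similar copies is not known here. Within 500 bp of the TSSs the share of 31-base words found once in the genome had a median of 100% in members with a peak and in those without, and its lowest value was 93.0% (RpL17) among members with a peak and 98.4% (RpL7A) among those without.

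Taken in each replicate on its own, the strongest 2239 regions held a promoter summit for 31 RpL genes in replicate 1 (57.4%, against 10.8% of all protein-coding genes), 34 in replicate 2 (63.0%, against 10.8%) and 20 in replicate 3 (37.0%, against 12.3%). The mean share was 52.5% ± 13.7 for the RpL genes and 11.3% ± 0.891 for all protein-coding genes (SD, n = 3). The RpL share was higher in 3 of 3 replicates, by 46.6, 52.2 and 24.7 percentage points. The mean difference was 41.2 ± 14.5 percentage points (exact sign-flip permutation test over the replicates, two-sided, p = 0.25, the smallest that 3 replicates can give). Every replicate held 19 RpL genes among its strongest 2239 regions (35.2%, against 6.72%), and without replicate 3 the count was 30. Of the 31 thresholded peaks, 29 were overlapped by one of the strongest 2239 regions in both replicates 1 and 2, against 20 in both 1 and 3 and 19 in both 2 and 3.

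The nearest comparison is with the genes of the small subunit, which encode the partner of the same ribosome. In the thresholded list 13 of 39 RpS genes had a promoter summit (33.3%, interval 19.1% to 50.2%), led by RpS27 (523.6) and RpS28b (211.5). In the replicates the RpL share was above the RpS share by 21.5, 29.6 and 19.1 percentage points, a mean of 23.4 ± 5.52 (SD, n = 3, exact sign-flip permutation test, two-sided, p = 0.25, the smallest possible). This difference was seen among the strong regions. With all regions of each replicate list it was 0.19 percentage points (exact test, p = 1), and in the pooled list the shares were 79.6% for RpL and 84.6% for RpS. The RpS shares averaged 29.1% ± 9.71 and those of the mitochondrial mRpL genes 16.3% ± 2.46 over the replicates.

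**Figure D2:**
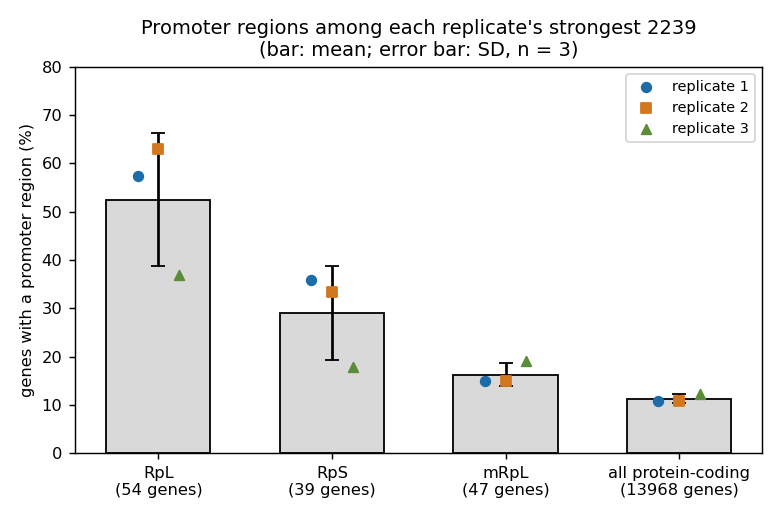
Percentage of genes with a promoter summit among the strongest 2239 regions of each replicate, for RpL, RpS, mRpL and all protein-coding genes. Bars are means of the 3 replicates, error bars are SD and symbols are the replicates; RpL values lie between 37.0% and 63.0%, above the other groups in each replicate, and replicate 3 is the lowest for RpL and RpS and the highest for mRpL.

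Other groups tied to the making and use of the ribosome gave these counts in the thresholded list, beside the 31 of 54 RpL genes and 11.6% of all protein-coding genes. Of the mRpL genes 7 of 47 had a peak, the strongest being mRpL41 (792.4) and mRpL23 (532.5). Of 14 genes listed by name for 60S subunit assembly 4 had one, with eIF6 (480.9), which keeps the subunits apart, and Ns2 (270.8) the strongest. The roles of the listed genes were not checked, and Nlp (108.8), also counted, may not be an assembly factor. None of 9 genes of RNA polymerase I and its factors had a peak. Of 8 elongation factor genes 3 had a peak, led by eEF1gamma (290.0) and eEF5 (132.0). Of the 5 genes for factors known at ribosomal protein promoters 3 had one, with Dref (188.9) and M1BP (120.2) the strongest. The Dref peak is shared with RpL13, whose TSS lies 84 bp from the TSS of Dref. Its summit was nearer to Dref, at -31 bp against -53 bp for RpL13. The M1BP summit lay at -339 bp, and CG8202 had the same signal with its summit at -54 bp.

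The summits of the RpL genes lay close to their start sites. Over the 31 genes the median position was 50 bp upstream of the TSS (quartiles -68.5 and -7.50), and the summit farthest downstream was that of RpL7 at 44 bp. Over all 1625 protein-coding genes with a peak the median was -135.0 bp (quartiles -216.0 and -60.0). A summit within 100 bp of a TSS was found in 25 of the 31 (80.6%), against 31.9% of all. The 6 farther out included RpL18 (-173), RpLP1 and RpL29 (both -137), RpL32 (-127) and RpL34b (-111). By annotation 23 summits were upstream of the gene and 8 in a 5′ untranslated exon. None lay in coding sequence or an intron. A position near the TSS was not particular to the RpL genes. Of the 13 RpS genes with a peak only RpS20, at -160 bp, had its summit farther than 100 bp from a TSS.

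The position held in each replicate. Among the strongest 2239 regions the share of RpL promoter summits within 100 bp was 83.9%, 79.4% and 75% in replicates 1, 2 and 3, against 32.8%, 33.9% and 27% for all protein-coding genes. The mean difference was 48.2 ± 2.78 percentage points (SD, n = 3, higher in 3 of 3 replicates, exact sign-flip permutation test, two-sided, p = 0.25, the smallest possible). This test was added after the positions had been seen. The median position of the 31 genes was -28.0, -38.0 and -62.0 bp in the replicates, a mean of -42.7 ± 17.5 bp. The value for replicate 3 covers 30 genes, as RpL11 had no region there. For 27 of the 31 genes every replicate summit that was found lay within 100 bp of the pooled summit. No such count over all genes with a peak is given here. The median over the 31 genes of the largest shift was 40.0 bp. Since fragments were 200 to 800 bp long, shifts of this size are smaller than the fragments.

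**Figure D3:**
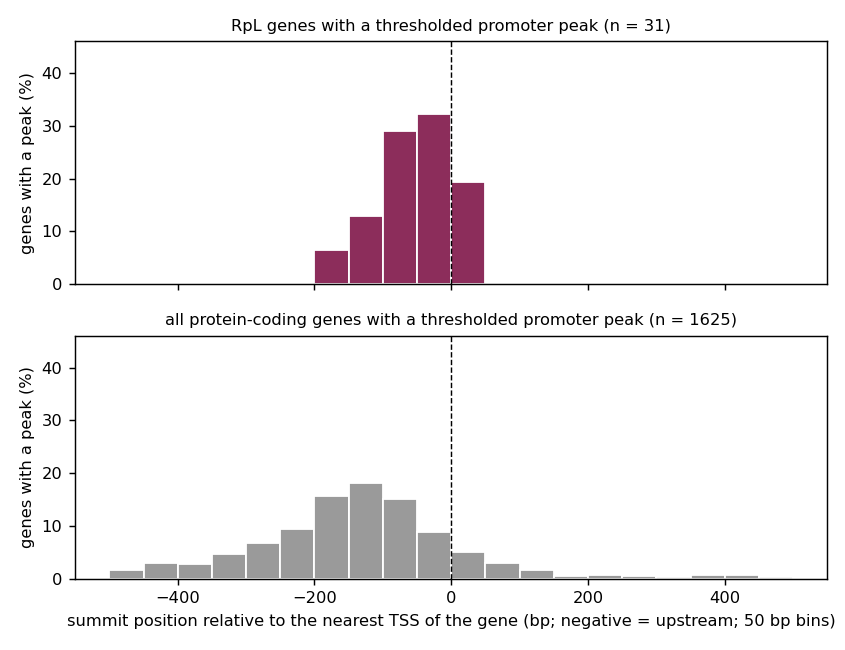
Position of the promoter summit relative to the nearest TSS of the gene (bp, negative is upstream, bins of 50 bp) as a percentage of the genes with a thresholded peak, for 31 RpL genes (upper panel) and all 1625 protein-coding genes (lower panel). RpL summits gather at the TSS, with quartiles of -68.5 and -7.50 bp, while those of all genes spread over the 500 bp to both sides with a median of -135.0 bp.

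Many RpL genes stand head to head with a neighbour. A protein-coding TSS on the other strand, transcribed away, lay within 1000 bp for 34 of the 54 (63.0%), against 36.2% of all protein-coding genes. Of these 34 divergent genes 22 had a thresholded peak (64.7%, interval 46.5% to 80.3%), against 9 of the 20 others (45.0%, interval 23.1% to 68.5%), intervals that overlap. Over all protein-coding genes the shares were 21.3% for divergent and 6.14% for other genes. In the replicates the divergent RpL genes were above the others by 27.6, 28.5 and 19.1 percentage points, a mean of 25.1 ± 5.20 (SD, n = 3, exact sign-flip permutation test, two-sided, p = 0.25, the smallest possible). The split was chosen because divergent promoters were common among genes with peaks in earlier results of these data. The test therefore gives no independent support. The close pairs carried most of the peaks. A partner TSS within 500 bp, a limit not set in the plan, was found for 22 RpL genes, of which 19 had a peak. Of the 12 with a partner farther away, 3 had one. Over all protein-coding genes these shares were 25% and 10%.

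Because neighbours share promoters, 19 of the 31 RpL peaks (61.3%, against 60.4% of all genes with a peak) also lay within 500 bp of the TSS of another protein-coding gene. A shared peak cannot be assigned to 1 of the genes. Among the strongest, RpL7 shared its peak with Ripalpha, RpL19 with CG3776, RpL34b with CG8132 and RpL13A with Dph4 and Spec2. RpL41 shared its peak with NaCP60E, and RpL14 with Nelf-E, a subunit of the negative elongation factor. RpL28 shared its peak with the initiation factor gene eIF1, RpLP0 with CG7130, RpL32 with CG7943 and RpL4 with the splicing factor gene BCAS2. The weaker shared peaks were those of RpL13 with Dref, RpL18 with Neos, RpLP0-like with 14-3-3zeta, RpL31 with CG12929, RpL36 with Mybbp1A, RpL29 with Sgf29, RpL3 with CG6693 and RpLP1 with CG13690. RpL23A was the only 1 of the 12 strongest with a peak of its own.

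Within the shared promoters the summit could lie nearer to either gene. The RpL TSS was the nearest in 15 of the 19 shared peaks (78.9%), against 50.6% of the 982 protein-coding genes that share a peak. In the other 4, RpL13, RpL18 and RpL29 among them, the TSS of the partner was nearer. A shared peak counts for every gene that shares it, though the nearest TSS is that of a single gene. The counting itself thus keeps the share over all genes near even. All 9 RpL genes with a peak and no divergent partner had their summit within 100 bp of the TSS, with a median of -17.0 bp, against 30.7% of the 547 protein-coding genes of that kind, with a median of -139.0 bp.

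Replicate 3 gave the RpL promoters lower ranks than the other replicates. Of the 31 genes with a thresholded peak, 96.8%, 96.8% and 64.5% were among the strongest 2239 regions of replicates 1, 2 and 3. For all protein-coding genes with a thresholded peak these shares were near even, at 80.4%, 81.2% and 81.4%. The median rank of the 31 was 646.0, 766.0 and 1565.5, against 1097.5, 1133.0 and 982.0 for all. Genes absent from a replicate list are left out of its medians, so the RpL value for replicate 3 covers 30 genes. Of the 30 RpL genes found in every replicate list, 27 ranked lower in replicate 3 than the geometric mean of their ranks in replicates 1 and 2 (90%, against 48.3% of 1613 protein-coding genes). The median shift was 1.09 on the log2 scale of rank, against -0.0538 for all. RpLP0-like ranked 1011, 462 and 9891 in replicates 1, 2 and 3, and RpL35A ranked 1796, 2056 and 19134. The 3 that did not rank lower were RpL8, RpL32 and RpL34b.

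The small subunit genes moved the same way in replicate 3, with 12 of 13 ranked lower and a median shift of 1.68, and the mitochondrial mRpL genes did not, with 2 of 7 ranked lower and a median of -1.26. The list of replicate 3 is also shorter, with 21147 regions against 30000 in each of the others, and RpL11, absent from it, is not among the 30 genes compared. The part of list length, depth, embryo age within the 0 to 24 h window or precipitation in this shift was not tested, as the labels give no such values by replicate. Without replicate 3 the mean difference of RpL from all protein-coding genes was 49.4 percentage points and that from RpS 25.6.

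**Figure D4:**
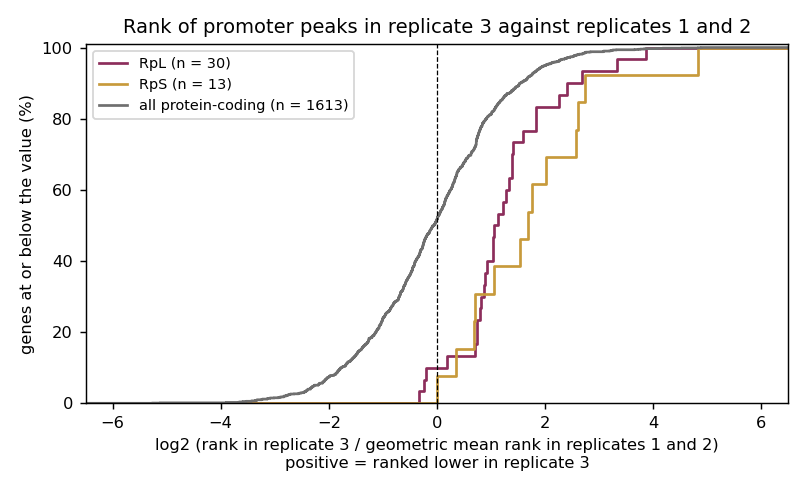
Cumulative percentage of genes (vertical axis) by the log2 ratio of the rank in replicate 3 to the geometric mean rank in replicates 1 and 2 (horizontal axis), for 30 RpL, 13 RpS and 1613 protein-coding genes found in all 3 lists. Values above 0 are ranked lower in replicate 3; the RpL curve has its median at 1.09 and that of RpS at 1.68, against -0.0538 for all genes.

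The promoter words were counted in the window from 250 bp before to 50 bp after any annotated TSS, on both strands unless stated. A match is a description of the reference sequence and not a bound site. The TCT word CTTT, read on the strand of the gene with its C within 10 bp of a TSS, was in 47 of 54 RpL promoters (87.0%), against 74.4% of RpS and 14.9% of all protein-coding promoters. The start-site lines of RpL34b to RpL3 printed above show it. The C of the marked word lay 3 to 5 bp downstream of the TSS in 7 of them and 1 bp upstream in RpL14. It was in 28 of the 31 promoters with a peak (90.3%) and in 19 of the 23 without (82.6%). The 7 promoters without it were RpL10Aa, RpL12, RpL17, RpL24-like, RpL26, RpL34a and RpLP0-like. With the most upstream TSS of each gene alone, the shares were 57.4% for RpL, 43.6% for RpS and 10.8% for all.

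The DRE core TATCGATA was in 15 RpL promoters (27.8%), against 33.3% of RpS and 10.2% of all protein-coding promoters. The Motif 1 core GGTCACAC was in 10 (18.5%), against 15.4% and 8.69%. Together, 22 RpL promoters held at least 1 of them (40.7%, against 17.7% of all), and RpL19, RpL27 and RpL6 held both. Within the RpL genes both words were found with and without a peak. DRE was in 22.6% of promoters with a peak and 34.8% of those without, which rest on 7 and 8 promoters. Motif 1 was in 22.6% and 13%. Across all protein-coding genes DRE was in 15.6% of promoters with a peak and 9.45% of those without, the reverse order. Motif 1 was in 14.3% and 7.95% of them. RpL27 and RpL6 hold both words, and RpL27 had a pooled signal of 68.6 while RpL6 had a region in replicate 2 only.

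The E-box CACGTG was in 13 RpL promoters (24.1%), against 5.13% of RpS and 5.29% of all protein-coding promoters. With the most upstream TSS alone it was in 8 (14.8%), against 0% of RpS and 4.20% of all. The E-box CAGCTG ran the other way, with 3 RpL promoters (5.56%), against 20.5% of RpS and 22.3% of all. Over all genes with a peak CAGCTG was in 35.0% of promoters, and of the 31 RpL promoters with a peak it was in 1, that of RpLP0. The word GAGAG, found in GAGA factor sites, was in 25.9% of RpL promoters, against 12.8% of RpS and 36.2% of all. TATAAA was near even, at 50%, 53.8% and 51.2%. Within the RpL genes TATAAA was in 38.7% of promoters with a peak and 65.2% of those without. Over all protein-coding genes these shares were 56.6% and 50.5%. CACGTG was in 25.8% of RpL promoters with a peak and 21.7% of those without.

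**Figure D5:**
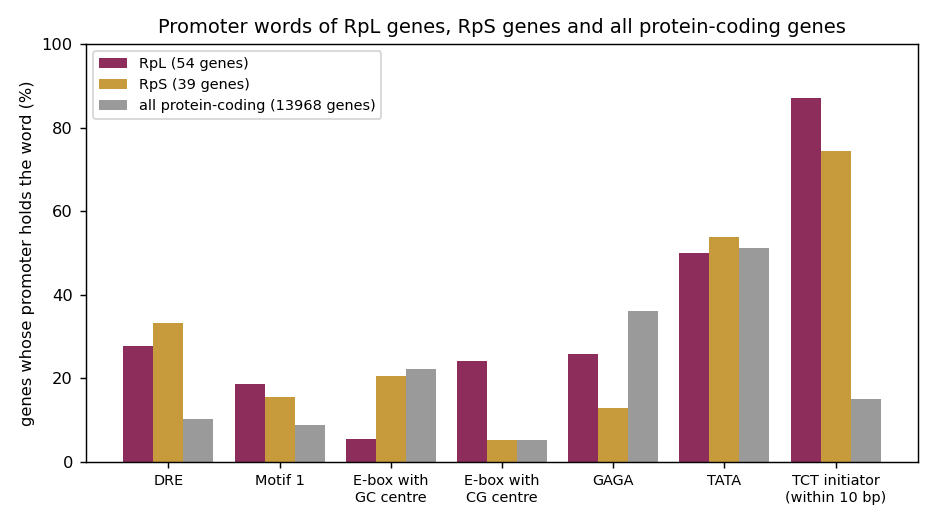
Percentage of promoters that hold each word, for 54 RpL, 39 RpS and 13968 protein-coding genes. The window ran from 250 bp before to 50 bp after any TSS. For the word CTTT, drawn as TCT initiator, it was within 10 bp of a TSS. RpL bars stand at 87.0% for CTTT and 24.1% for the E-box with the CG centre, against 14.9% and 5.29% for all genes. For the E-box with the GC centre the RpL bar stands at 5.56%, against 22.3%.

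The words were also counted in the 100 bp to each side of the summits. DRE was in 7 of the 31 RpL windows (22.6%), against 3.89% of all 2239 thresholded summits and 7.49% of the 1121 at protein-coding promoters. Motif 1 was in 16.1%, against 2.46% and 4.55%, and CACGTG in 19.4%, against 2.28% and 2.77%. CAGCTG was in 0 of 31, against 9.07% and 12%. GAGAG was in 6.45%, against 25.3% and 21.8%, and TATAAA in 19.4%, against 34.4% and 38.4%. RpL windows held more G and C, 42.5% ± 5.92, against 37.0% ± 7.21 for all thresholded summits (SD over windows). RpL summits also lay nearer the TSS, with 80.6% within 100 bp against 31.9% for all protein-coding genes with a peak. What part base composition or this position has in the shares of the words was not tested.

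The distance from the centre of the word to the summit varied. For the DRE core it was 26 bp in RpL28, 25 bp in RpL26 and 60 bp in RpL37-1, all printed above. It was 4 bp in RpL41, 6 bp in RpL19 and 19 bp in RpL36. For the Motif 1 core it was 4 bp in RpLP0, 5 bp in RpL27A and 6 bp in RpL30. It was 43 bp in RpL37A, 54 bp in RpL7, 123 bp in RpLP1 and 214 bp in RpL19. CACGTG lay near the summit in some genes and far from it in others. The distance was 6 bp in RpL11, 15 bp in RpLP0-like, and 25 bp in RpL24 and in RpL7. It was 81 bp in RpL29, 149 bp in RpL34b, 178 bp in RpL32 and 458 bp in RpL28.

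Where the genes lie in the genome was described last. By arm, 7 of 13 RpL genes on 2L had a peak, 7 of 14 on 2R, 7 of 10 on 3L, 6 of 11 on 3R and 4 of 6 on X. Over all protein-coding genes the shares were 11.9% on 2L, 10.9% on 2R, 13.4% on 3L, 12.8% on 3R and 8.70% on X. Few of the genes nearest the centromeres had a peak. Of the 6 within 5.1 Mb of the centromere end of the arm, RpL15, RpL5, RpL21, RpL30, RpL38 and RpL10, only RpL30 had a peak, against 30 of the 48 others. This limit was chosen after the values were seen. All protein-coding genes within it had a peak in 7.84% of cases, and 12% beyond it. RpL10, RpL15, RpL21 and RpL38 were also absent from the pooled list.

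RpL genes are short and often host small nucleolar RNAs in their introns, guides for the modification of ribosomal RNA. Their median length was 1315.0 bp, against 2164.5 bp over all protein-coding genes. Members with a peak had a median of 1387.0 bp and those without one of 1191.0 bp. There were 16 host genes with 33 nested snoRNA genes, among them RpL28 with 5 and RpL3, RpL17 and RpL23A with 4 each. Of the 16 hosts 11 had a peak, against 20 of the 38 others, and of the 84 host genes among all protein-coding genes 39.3% had one.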

How the data were processed

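Peak lists for 3 biological replicates of CG3838-GFP embryos were used. Per the deposited README files, the authors called peaks and background regions on each replicate and on the pooled alignments against 1 control alignment per build, and filtered them by the irreproducible discovery rate. No source used here names the aligner or caller. The signal of each region and the −log10 q value are as deposited by the authors, and the q value was not used to rank. Lists on dm6 were used, and dm3 lists were not used here. Genes and TSSs came from Ensembl release 115, and sequence from the RefSeq dm6 genome, where 30565 of 30618 annotated start codons read ATG.

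A gene had a promoter summit when 1 lay within 500 bp of any TSS. The 2239 strongest regions of each replicate were compared by exact sign-flip permutation tests, and intervals are exact Clopper-Pearson at 95%, for counting error only. A peak shared by neighbouring genes counted for each. Counting was tested on simulated lists. Named are all RpL genes with a peak (the 12 strongest with replicate signals), the 3 nearest on each side of the list's edge, those in no list, paralogue symbols, neighbours that share a peak, and the 2 strongest of each other list. Other genes are named to illustrate a group, after their values were seen. Of 23 list symbols given by name, 1 was not matched. The single values of 1 RpL gene are not reported here, and it stays in the counts. Members and lists were chosen with earlier results of these data known. Alternatives covered windows, TSS choice, list depth, paralogues and replicates left out. Python 3.11.15, numpy 2.4.6, pandas 2.3.3 and scipy 1.17.1 were used.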

Additional observations from a re-analysis of the deposited data

How the results depend on the processing

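Of 81 alternatives 0 reversed a result. The RpL minus RpS difference in the pooled list was not among them, and there RpL was lower, at 79.6% against 84.6%. For differences between shares only direction and side of the threshold were judged, not size, and none could pass the threshold. The RpL minus RpS difference of 23.4 percentage points was 11.1 with the strongest 1000 regions of each replicate and 0.19 with all regions, and the RpL minus all difference of 41.2 was 23.4 with the strongest 1000. The 31 RpL genes with a thresholded peak became 18 with the strongest 1000 regions and 11 with the strongest 500. The 19 found in every replicate became 10 with the strongest 1000 regions of each replicate and 40 with all regions. Leaving out 1 replicate at a time and asking for a region in the others gave 19 to 29 of the thresholded genes (19 without replicate 1, 20 without replicate 2 and 29 without replicate 3) and 19 to 30 genes in every replicate (30 without replicate 3). The median position of -50.0 bp moved to -29.0 bp with all pooled regions and to -17.0 bp for members without a divergent partner; the cause was not tested. With 2 replicates the smallest two-sided p of the exact sign-flip test is 0.5. Depth is unknown, so a gene in no list may be below detection.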

Other observations

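The printed promoters were read for other shared words after the values were known, so these counts are descriptions only. GCCACACT, which has CACAC in common with Motif 1, was in 9 RpL promoters (16.7%), against 7.69% of RpS and 2.68% of all protein-coding promoters. These were RpL11, RpL18, RpL24, RpL31, RpL35A, RpL37-1, RpL40, RpL8 and RpLP2, and 7 of them had a thresholded peak. GGTATTTT was in 10 RpL promoters (18.5%), against 25.6% of RpS and 6.25% of all. AACAGC was no more common in RpL promoters (24.1%) than in all (27%), and was in 35.5% of RpL promoters with a peak and 8.70% of those without. The latter shares rest on 11 and 2 promoters, and no such shares over all protein-coding genes are given here. All 3 words were counted on both strands in the same window from 250 bp before to 50 bp after any TSS.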
